A study of Mus musculus with 3 samples.

Results

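The CCN family genes are described here in non-cardiomyocytes (non-CMs) of mouse ventricles. The members are *Ctgf* (Ccn2), *Cyr61* (Ccn1), *Nov* (Ccn3), *Wisp1* (Ccn4) and *Wisp2* (Ccn5), 5 of the 27998 genes in the count matrices, written with the older symbols that the files use. They were taken as a named family list, selected on their levels by class and phase in earlier results of these data, so that those levels are given as a description and no test was made. The sixth gene of the family, *Wisp3*, had 2 UMIs in all 3 libraries together. The mice were wild-type male C57BL/6J JCL animals. Cells came from hearts of control mice (the healthy library, 0 weeks) and from hearts 2 weeks (adaptive hypertrophy) and 12 weeks (heart failure) after transverse aortic constriction (TAC), a narrowing of the aortic arch that overloads the left ventricle with pressure, made at 8 weeks of age. Each phase is 1 droplet-based single-cell library, so phase and library cannot be told apart, and the number of hearts in a library is not given in the sources used here. All cells were released with collagenase and separated on Percoll after the atria had been removed.

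CCN proteins are secreted into the matrix around cells, where they bind integrins, proteoglycans and growth factors and alter how cells respond to them, a role called matricellular. CCN1 and CCN2 are early products of mechanical load, of the YAP and TAZ coactivators acting with TEAD factors, and of transforming growth factor beta (TGF-beta), and CCN2, known as connective tissue growth factor, is widely used as a marker of fibrosis in the heart. CCN3 is found in vessel walls, CCN4 was first described as a product induced by Wnt1, and CCN5 lacks the carboxy-terminal cystine knot module of its relatives and has been described as opposing the profibrotic actions of CCN2.

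In the GRCm38 annotation *Ctgf* lies on the plus strand at chr10:24595442-24598683, *Cyr61* on the minus strand at chr3:145646976-145649981, *Nov* and *Wisp1* on the plus strand of the same chromosome at chr15:54745702-54754039 and chr15:66891320-66923201, and *Wisp2* on the plus strand at chr2:163820861-163833146. Each of the 5 genes has 5 exons in its longest coding transcript. The coding length of *Wisp2* is 753 bases, the shortest of the family members shown, against 1044 bases for *Ctgf*, 1062 for *Nov*, 1101 for *Wisp1* and 1137 for *Cyr61*. Of the 5 genes, *Cyr61* is the one whose promoter is in the RefSeq table used (GRCm38.p6). For that reason the 250 bases before its start, at chr3:145649986-145650235, are shown. They are written 5′ to 3′ along the minus strand, with capitals for the match to the TEAD motif GGAATG, which reads CATTCC on this strand.

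Cyr61 promoter: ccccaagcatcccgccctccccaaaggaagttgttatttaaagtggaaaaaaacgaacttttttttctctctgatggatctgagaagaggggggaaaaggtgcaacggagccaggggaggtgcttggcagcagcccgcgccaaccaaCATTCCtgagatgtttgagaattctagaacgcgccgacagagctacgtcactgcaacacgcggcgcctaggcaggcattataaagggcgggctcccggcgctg

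The single TEAD match lies at position -103 from the start, and 12.6% of the 32851 promoter windows of the same length hold these letters on either strand. No match was found in this window to the AP-1 motif TGANTCA, the SMAD motif CAGACA, the TCF/LEF motif CTTTGAT or the CArG box, which 6.75%, 17.1%, 3.21% and 1.47% of all windows hold. These are matches of letters and say nothing of whether a factor binds.

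After cells with fewer than 200 genes had been removed, 3892, 2231 and 792 cells with 12287823, 4465929 and 1712728 UMIs (unique molecular identifiers, each standing for 1 captured transcript) were kept at 0, 2 and 12 weeks, and the median cell had 2589, 1495 and 1434 UMIs. Over the 3 pairs of libraries 9 cell barcodes were shared. A cell was placed in a class when the summed UMIs of 1 marker list were at least 3 and at least 2 times those of every other list. This gave 1110, 1781 and 315 endothelial cells (ECs), 1245, 100 and 194 fibroblasts (FBs), 399, 65 and 40 mural cells (pericytes and smooth muscle) and 961, 196 and 184 blood cells at 0, 2 and 12 weeks. Every class carried its own list, with 11 or 12 of the 12 markers of each of these lists in at least 5% of the cells gated by it. Since cells were gated on these same lists, this describes the gate and is no separate check of the classes. No doublet caller was run, and cells in which 2 lists came close (122, 31 and 6 cells) were set aside as mixed. A level is the number of UMIs of the gene per 1000000 UMIs of the class (CPM). The 95% intervals, given in parentheses, are exact Poisson intervals for levels, conditional exact binomial intervals for ratios and Clopper-Pearson intervals for shares of cells. They hold counting error alone and leave out the spread between cells and the spread between hearts. Transcripts are counted once from their 3′ end, so levels are not divided by length, and the members are not ranked against each other by level.

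The members differed in where their UMIs lay. *Wisp2* was almost confined to FBs, which held 723 of its 749 UMIs (96.5%). FBs also held 1408 of the 1644 *Ctgf* UMIs (85.6%) and 28 of the 40 *Wisp1* UMIs (70.0%). The 8297 *Cyr61* UMIs were divided between FBs (42.8%) and ECs (41.5%), with 6.91% in mural cells. *Nov* was the member spread most evenly, with 113 of 277 UMIs in ECs (40.8%), 73 in FBs (26.4%) and 59 in mural cells (21.3%). Blood cells held between 0% and 1.44% of the UMIs of any member. These shares depend on how many cells of each class a library held, so the levels below are given per class.

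**Figure D1:**
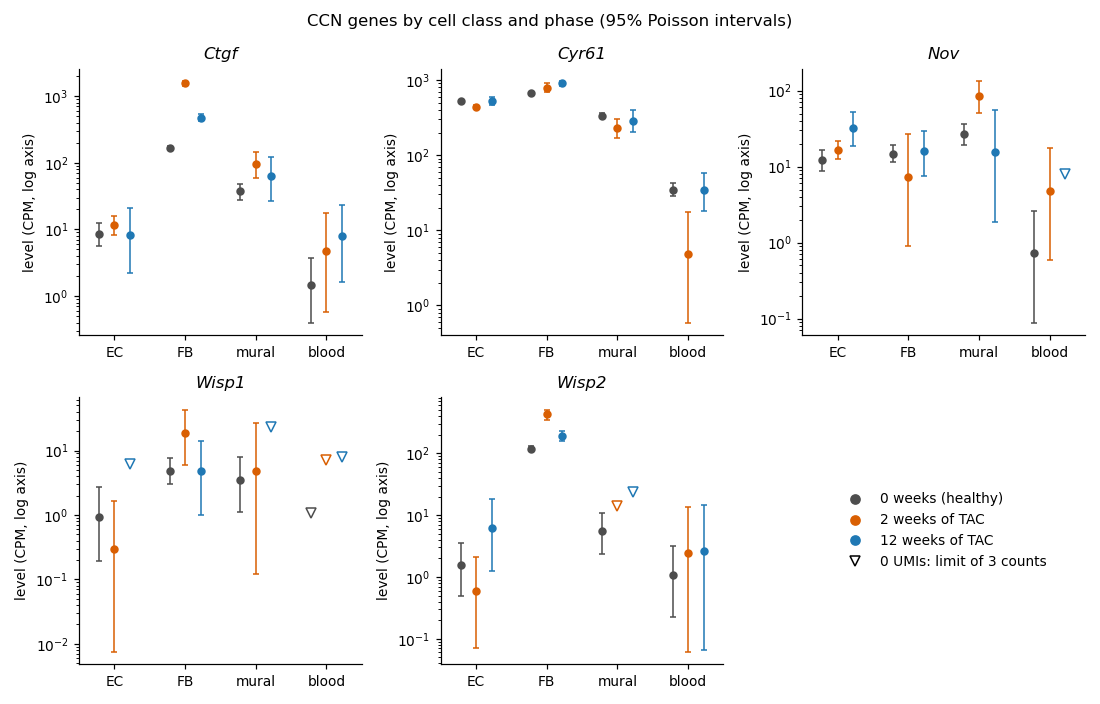
Level of each CCN gene (CPM, log axis) in ECs, FBs, mural cells and blood cells at 0, 2 and 12 weeks, with 95% Poisson intervals, where open triangles mark 0 UMIs at the limit of 3 counts. *Ctgf* and *Wisp2* stand highest in FBs and there at 2 weeks, *Cyr61* is high in ECs, FBs and mural cells in every phase, and *Nov* is highest in mural cells at 2 weeks.

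*Ctgf*, which encodes connective tissue growth factor, showed the largest phase ratio in FBs among the 5 genes. Healthy FBs held 691 *Ctgf* UMIs, a level of 168 CPM (156 to 181). FBs of the 2-week library held 418 UMIs, or 1547 CPM (1402 to 1703), and those of the 12-week library 299 UMIs, or 476 CPM (424 to 533). The 3 intervals do not overlap, and the level was lowest in the healthy library and highest at 2 weeks. Relative to the healthy library, *Ctgf* was 9.19 times as high at 2 weeks (8.12 to 10.4) and 2.83 times as high at 12 weeks (2.46 to 3.25), and its ratio of 12 weeks to 2 weeks was 0.308 (0.264 to 0.358). In pooled levels such as these, more RNA per cell cannot be told apart from a larger share of FBs that express the gene strongly.

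More FBs had a *Ctgf* UMI and those that had one had more of them. A *Ctgf* UMI was found in 355 of 1245 healthy FBs (28.5%, 26.0 to 31.1), in 62 of 100 at 2 weeks (62.0%, 51.8 to 71.5) and in 90 of 194 at 12 weeks (46.4%, 39.2 to 53.7). With every cell thinned to 1000 UMIs, which kept 1245, 71 and 164 FBs, these shares were 13.3%, 50.5% and 30.5%. Cells with 3 or more *Ctgf* UMIs made up 6.18% of healthy FBs, 39.0% at 2 weeks and 18.6% at 12 weeks, and they carried 49.6%, 91.9% and 75.6% of the *Ctgf* UMIs of the class. The highest count in 1 cell was 18, 44 and 22 UMIs. Without the 3 cells with the most *Ctgf* UMIs in each library, an alternative added after the data had been seen, the ratio at 2 weeks was 7.76, and without cells that had over 10% mitochondrial UMIs it was 6.89. The 3 cells are a larger part of 100 FBs than of 1245, and leaving them out by itself lowers the ratio. The mitochondrial filter left 1204 of the 1245 healthy FBs and 59 of the 100 at 2 weeks. The median mitochondrial share of FBs was 2.61%, 7.62% and 4.74% at 0, 2 and 12 weeks.

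The libraries differed in which FBs they held, so FBs were also divided by 5 lists of 5 to 7 subtype genes, each named here by its first genes. FBs marked by *Postn*, *Thbs4* and *Cilp*, genes of activated FBs, made up 8.67% of healthy FBs, 39.0% at 2 weeks and 9.79% at 12 weeks, and those marked by *Pi16* and *Cd248*, genes of adventitial FBs, made up 36.5%, 14.0% and 22.2%. Within the groups that held 10 or more FBs in the 2-week library *Ctgf* was also higher at 2 weeks than in the healthy library, and the part of subtype shares in the pooled ratio was not tested. In *Postn* *Thbs4* *Cilp* FBs it was at 314, 1967 and 592 CPM at 0, 2 and 12 weeks, with a 2-week ratio of 6.26 (5.06 to 7.75) and a 12-week ratio of 1.88 (1.38 to 2.54). In *Pi16* *Cd248* FBs it was at 162, 1160 and 808 CPM, with ratios of 7.14 (4.72 to 10.5) and 4.97 (3.88 to 6.33). In FBs marked by *Wif1*, *Comp* and *Chad*, genes of matrix-rich FBs, the levels were 153, 1991 and 476 CPM and the ratios 13.01 (8.30 to 20.6) and 3.11 (1.91 to 5.06). FBs that no list marked had ratios of 7.61 (5.89 to 9.79) and 2.73 (2.06 to 3.59).

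The order of the FB groups was not the same in every library, a difference that was not tested. The *Ctgf* ratio of *Postn* *Thbs4* *Cilp* FBs to *Pi16* *Cd248* FBs was 1.94 (1.56 to 2.39) before TAC and 1.70 (1.16 to 2.57) in the 2-week library. In the 12-week library it was 0.734 (0.526 to 1.02), an interval that includes 1. In FBs marked by *Inmt* and *Gdf10* the level at 12 weeks was 53.8 CPM (4 UMIs in 21 cells) against 150 CPM in the healthy library, a ratio of 0.358 (0.0933 to 0.988), and 1 such cell was gated at 2 weeks. In FBs marked by *Cxcl14* and *Hsd11b1* the ratio at 12 weeks was 3.17 (1.83 to 5.31). With a stricter sub-gate (3 UMIs and 2 times the next list), the 2-week ratio was 8.30 in *Postn* *Thbs4* *Cilp* FBs, 11.2 in *Pi16* *Cd248* FBs and 26.2 in *Wif1* *Comp* *Chad* FBs. These sub-gate lists come from names of earlier groupings of the same cells, and their use here is a description.

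**Figure D2:**
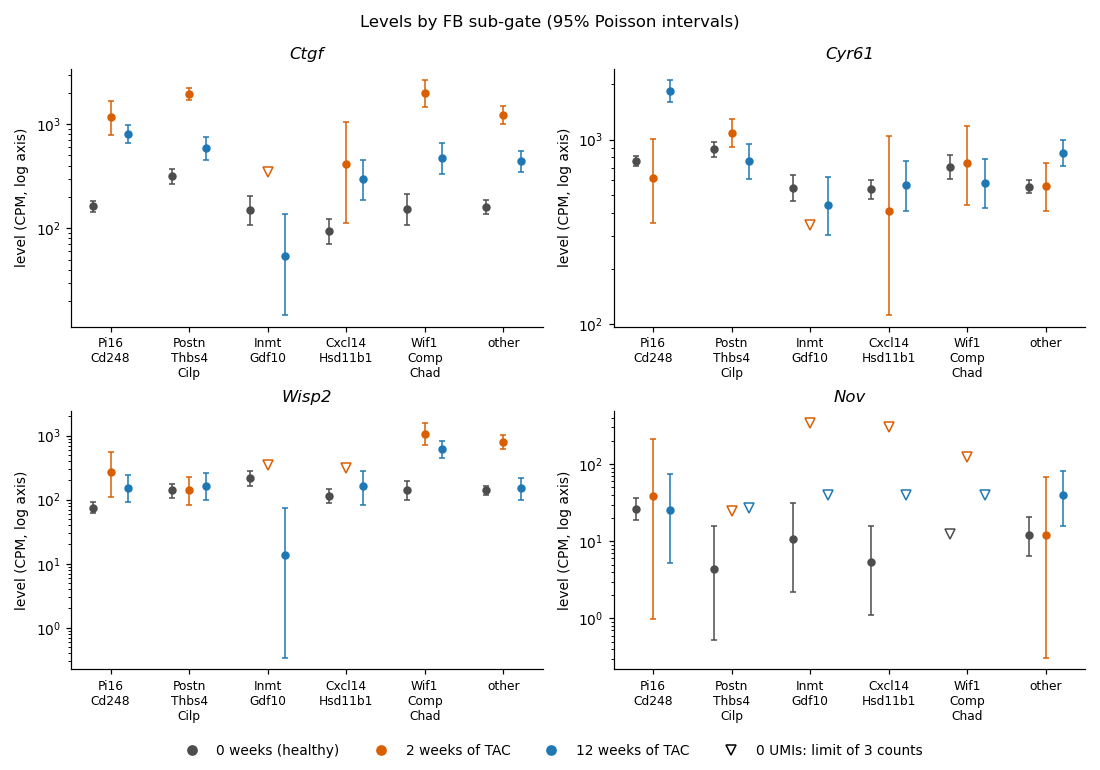
Levels (CPM, log axis) of *Ctgf*, *Cyr61*, *Wisp2* and *Nov* in FBs divided by subtype lists, at 0, 2 and 12 weeks, with 95% Poisson intervals and open triangles for 0 UMIs at the limit of 3 counts. *Ctgf* at 2 weeks lies above the healthy level in each group in which it had UMIs, *Cyr61* is highest in *Pi16* *Cd248* FBs at 12 weeks, and *Wisp2* is highest in *Wif1* *Comp* *Chad* FBs at 2 weeks.

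Outside FBs *Ctgf* was low. In ECs it was at 8.60 CPM (28 UMIs), 11.5 CPM (39 UMIs) and 8.18 CPM (4 UMIs) at 0, 2 and 12 weeks, and the phase ratios of 1.33 (0.800 to 2.25) and 0.951 (0.242 to 2.72) include 1. A *Ctgf* UMI was seen in 1.98%, 1.46% and 1.27% of ECs, and in 0.416%, 1.02% and 1.63% of blood cells, which should lack the gene, at median depths of 2200, 1492 and 1305 UMIs for ECs and 2613, 1518 and 1369 UMIs for blood cells. The *Ctgf* level of ECs over that of blood cells was 5.97 before TAC (2.09 to 23.4). With 2.39 (0.618 to 20.4) in the 2-week and 1.03 (0.175 to 7.05) in the 12-week library, ECs as a whole could not be separated there from the level of cells that should lack the gene. The 38, 62 and 11 ECs marked as venous had 5, 18 and 1 *Ctgf* UMIs (45.9, 147 and 39.8 CPM), against 15, 16 and 0 UMIs in the 821, 1297 and 184 capillary ECs. The venous level was 7.60 times the capillary level (2.16 to 22.01) in healthy hearts and 23.8 times (11.4 to 49.8) at 2 weeks, where 18 UMIs came from 7 cells.

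In mural cells *Ctgf* was at 37.3 CPM (54 UMIs), 95.02 CPM (20 UMIs) and 62.4 CPM (8 UMIs), with a 2-week ratio of 2.55 (1.44 to 4.32) and a 12-week ratio of 1.67 (0.687 to 3.53). The ratio at 2 weeks was 4.72 when cells were gated with the markers named in the study's methods. In the healthy library pericytes were at 63.5 CPM and smooth muscle cells at 27.9 CPM, a ratio of 2.27 (1.13 to 4.43). If the FB markers seen in mural cells had brought *Ctgf* with them in the proportion found in FBs, they would account for 5.23, 52.0 and 18.9 CPM, of which the value at 2 weeks compares with 95.02 CPM measured. The part of FB RNA in the mural difference was not tested.

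*Cyr61*, an early response member, was found in ECs, FBs, mural cells and neural cells at levels well above those of blood cells. Its phase ratios in ECs, FBs and mural cells were within 2-fold. In ECs it was at 521 CPM (496 to 546), 438 CPM (416 to 460) and 529 CPM (467 to 598) at 0, 2 and 12 weeks, from 1695, 1487 and 259 UMIs. The EC ratios were 0.840 (0.783 to 0.902) for 2 weeks and 1.02 (0.889 to 1.16) for 12 weeks. In FBs it was at 675 CPM (650 to 701), 792 CPM (690 to 906) and 903 CPM (830 to 981), from 2773, 214 and 567 UMIs, with ratios of 1.17 (1.02 to 1.35) and 1.34 (1.22 to 1.46). In mural cells it was at 337, 228 and 289 CPM, with ratios of 0.676 (0.492 to 0.911) and 0.855 (0.595 to 1.196). In FBs the interval of the 2-week level overlaps both others, and in ECs the level at 2 weeks lies below both.

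Several *Cyr61* differences changed when few cells were left out. Without the 3 cells with the most *Cyr61* UMIs in each library, the FB ratio at 2 weeks turned from 1.17 to 0.877 and that at 12 weeks went from 1.34 to 1.15, and the mural ratios went from 0.676 to 0.472 and from 0.855 to 0.464. The libraries after TAC held fewer FBs and mural cells, so the 3 cells were a larger part of them, which by itself lowers these ratios. Among cells with 1000 to 4000 UMIs, also added after the data had been seen, the mural ratio at 12 weeks was 0.191. With the markers of the study's methods the mural ratio at 2 weeks was 1.03. The share of ECs with a *Cyr61* UMI was 53.5%, 35.5% and 29.8% at 0, 2 and 12 weeks, and 32.7%, 26.2% and 26.3% after thinning to 1000 UMIs. In FBs the share was 54.1%, 54.0% and 54.1%, and after thinning 34.2%, 43.0% and 40.3%. In blood cells 7.18%, 1.02% and 5.98% of cells had a UMI, and the ratio of ECs to blood cells was between 14.9 and 91.0 over the 3 libraries.

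**Figure D3:**
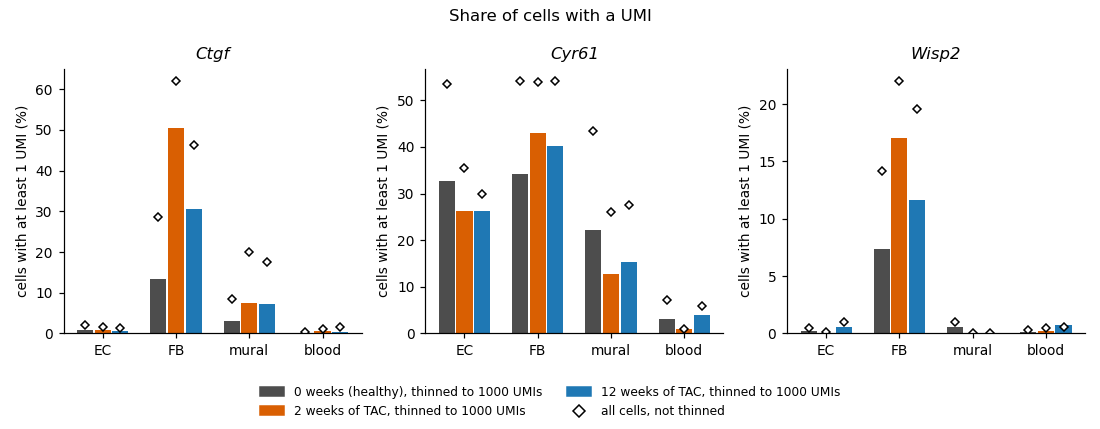
Share of cells (%) with at least 1 UMI of *Ctgf*, *Cyr61* or *Wisp2* by class and phase, with bars for cells thinned to 1000 UMIs and diamonds for all cells as counted. The *Ctgf* share of FBs is 13.3%, 50.5% and 30.5% after thinning, while the *Cyr61* share of ECs spans 29.8% to 53.5% in cells as counted and 26.2% to 32.7% in thinned cells.

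Within FBs *Cyr61* differed by subtype at 12 weeks. In *Pi16* *Cd248* FBs it was at 766, 619 and 1830 CPM at 0, 2 and 12 weeks, with a 12-week ratio of 2.39 (2.05 to 2.77), and in *Postn* *Thbs4* *Cilp* FBs at 884, 1084 and 766 CPM, with a 12-week ratio of 0.866 (0.676 to 1.10). The ratio of the second group to the first was 1.15 (1.03 to 1.29) in the healthy library and 0.418 (0.321 to 0.541) at 12 weeks. The 213 UMIs of the first group at 12 weeks came from 27 of 43 cells, but the tenth of cells with the most UMIs held 149 of them (70.0%), 1 cell had 36, and the ratio was not recomputed without these cells. Within ECs the levels of capillary and arterial cells were close, with arterial over capillary ratios of 0.853 (0.668 to 1.07), 0.965 (0.796 to 1.16) and 1.21 (0.844 to 1.72), and lymphatic ECs stood above capillary ECs in the healthy library, at 1.55 times (1.22 to 1.96). Cells gated as neural, with 51, 25 and 15 cells, had a *Cyr61* level of 1642 CPM in the healthy library, above that of the 4 other classes, and of 749 and 1124 CPM at 2 and 12 weeks. The ratios of these neural cells to the healthy library were 0.456 (0.308 to 0.659) and 0.6845 (0.471 to 0.973). In the healthy library pericytes were at 476 CPM and smooth muscle cells at 258 CPM of *Cyr61*, a ratio of 1.85 (1.47 to 2.31).

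*Nov*, a member known from vessel walls, was higher in arterial than in capillary ECs of the healthy and 2-week libraries. Arterial ECs had 12 UMIs in 81 cells in the healthy library (67.3 CPM), 42 UMIs in 154 cells at 2 weeks (148 CPM) and 4 UMIs in 38 cells at 12 weeks (59.5 CPM), while capillary ECs had 7 UMIs in 821 cells, 4 in 1297 and 5 in 184 (2.82, 1.55 and 17.9 CPM). The ratio of arterial to capillary ECs was 23.9 (8.67 to 71.6) and 95.4 (34.6 to 366) at 0 and 2 weeks, and 3.32 (0.659 to 15.4) at 12 weeks, an interval that includes 1. With the stricter sub-gate it was 16.0 at 12 weeks. In arterial ECs the ratio of 2 weeks to the healthy library was 2.19 (1.13 to 4.57). Over all ECs the level was 12.3, 16.8 and 32.7 CPM (40, 57 and 16 UMIs), with ratios of 1.37 (0.895 to 2.10) and 2.66 (1.39 to 4.86). The 12-week ratio was 1.35 among cells with 1000 to 4000 UMIs, and the 16 UMIs at 12 weeks came from 10 cells. At 12 weeks 12.1% of ECs were gated as arterial, against 7.30% in the healthy library. The ratio of 12 weeks to the healthy library was 0.884 (0.208 to 2.92) in arterial ECs and 6.36 (1.59 to 23.3) in capillary ECs. The part of vessel type shares in the ratio over all ECs was not tested. Other vessel types also had *Nov*. In the healthy library lymphatic ECs were at 51.8 CPM (16.8 to 121) from 5 UMIs, and venous ECs at 36.7, 16.3 and 119 CPM from 4, 2 and 3 UMIs at 0, 2 and 12 weeks. Their intervals overlap those of arterial ECs in the healthy and 12-week libraries. At 2 weeks the 37 ECs with a *Nov* UMI had less *Cyr61* than the other ECs, 221 against 445 CPM, a ratio of 0.497 (0.321 to 0.737) that was 0.904 (0.631 to 1.26) in the healthy library and 0.990 (0.488 to 1.80) at 12 weeks. The ECs with *Nov* were deeper at 2 weeks, with a median of 2193 UMIs against 1478, and the part of depth in the ratio was not tested.

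**Figure D4:**
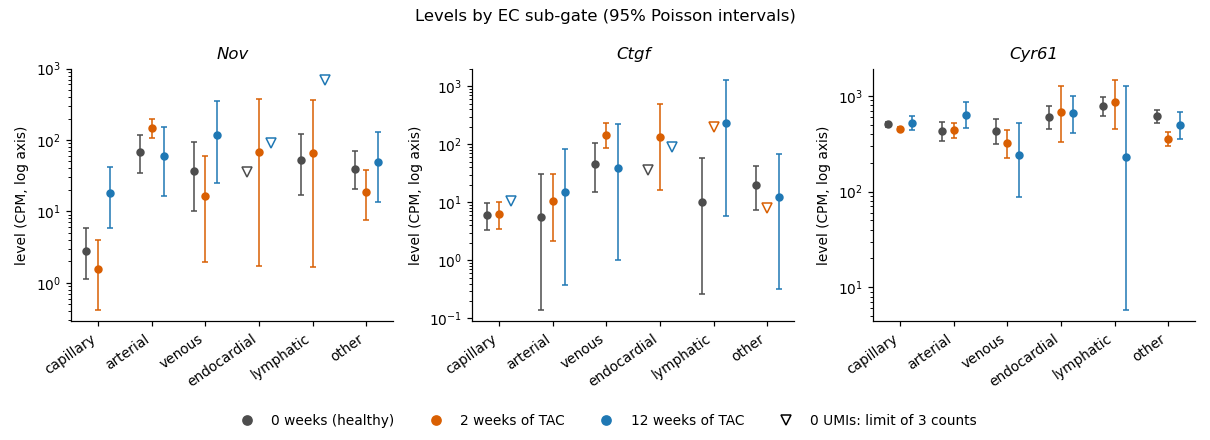
Levels (CPM, log axis) of *Nov*, *Ctgf* and *Cyr61* in ECs divided by vessel type lists, at 0, 2 and 12 weeks, with 95% Poisson intervals and open triangles for 0 UMIs at the limit of 3 counts. *Nov* is higher in arterial than in capillary ECs at 0 and 2 weeks, *Ctgf* is highest in venous ECs in the healthy library, and *Cyr61* is at similar levels in capillary and arterial ECs.

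In mural cells *Nov* was at 27.0 CPM (39 UMIs in 18 of 399 cells), 85.5 CPM (18 UMIs in 7 of 65 cells) and 15.6 CPM (2 UMIs in 2 of 40 cells). The ratio at 2 weeks was 3.17 (1.71 to 5.68), but 10 of the 18 UMIs lay in 1 cell, and without the 3 cells with the most *Nov* UMIs in each library it was 1.38. Those 3 cells are a larger part of 65 mural cells than of 399, which by itself lowers the ratio. At 12 weeks the ratio was 0.579 (0.0677 to 2.24). In FBs *Nov* was at 14.9, 7.40 and 15.9 CPM (61, 2 and 10 UMIs), with ratios of 0.498 (0.0590 to 1.88) and 1.07 (0.490 to 2.11). *Pi16* *Cd248* FBs held 40 of the 61 healthy UMIs, and their level of 26.6 CPM was 6.10 times that of *Postn* *Thbs4* *Cilp* FBs (1.58 to 52.1), which had 2 UMIs. A difference of *Nov* between phases was not detectable in FBs at this depth, and 7 of the 10 UMIs at 12 weeks lay in 1 cell. In blood cells it had 2, 2 and 0 UMIs, where the limit of 3 counts set for 0 UMIs is 7.92 CPM at 12 weeks.

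*Wisp2*, which encodes CCN5, was higher in FBs than in every other class. Healthy FBs held 486 *Wisp2* UMIs, a level of 118 CPM (108 to 129). With 115 UMIs the 2-week FBs were at 426 CPM (351 to 511), and with 122 UMIs the 12-week FBs were at 194 CPM (161 to 232). The 2-week level was 3.60 times (2.91 to 4.42) and the 12-week level 1.64 times (1.34 to 2.01) that of healthy FBs, and the ratio of 12 weeks to 2 weeks was 0.456 (0.351 to 0.594). It was highest at 2 weeks, as *Ctgf* was, and the 3 intervals do not overlap. In ECs it had 5, 2 and 3 UMIs and in blood cells 3, 1 and 1. Mural cells had 8, 0 and 0 UMIs. With 3 counts set in place of 0, the FB level was 29.9 times the mural level at 2 weeks and 8.31 times at 12 weeks. The lower limits of the intervals of the measured ratios were 23.9 and 6.65.

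*Wisp2* UMIs were gathered in a minority of FBs. A UMI was found in 14.1% of healthy FBs (12.3 to 16.2), 22% at 2 weeks (14.3 to 31.4) and 19.6% at 12 weeks (14.3 to 25.9), and after thinning to 1000 UMIs in 7.37%, 17.0% and 11.6%. The tenth of FBs with the most UMIs held 89.5%, 86.1% and 84.4% of them. In the 2-week library 11 of 100 cells had 3 or more and carried 102 of the 115 UMIs. Without the 3 cells with the most *Wisp2* UMIs in each library the ratio was 2.19 at 2 weeks and 1.22 at 12 weeks. Those 3 cells are a larger part of the smaller FB pools after TAC, which by itself lowers these ratios.

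The *Wisp2* ratio was not the same in every group of FBs, though the differences between groups were not tested. In *Postn* *Thbs4* *Cilp* FBs it was at 140, 142 and 164 CPM, with ratios of 1.01 (0.557 to 1.75) and 1.17 (0.655 to 2.01), where *Ctgf* was 6.26 times as high at 2 weeks. In *Pi16* *Cd248* FBs it was at 75.2, 271 and 155 CPM, with ratios of 3.60 (1.41 to 7.66) and 2.06 (1.18 to 3.40). In *Wif1* *Comp* *Chad* FBs it was at 141, 1079 and 608 CPM, with ratios of 7.67 (4.42 to 13.2) and 4.33 (2.72 to 6.95), but the 26 UMIs at 2 weeks came from 3 of 12 cells and the ratios with the stricter sub-gate were 2.07 and 1.00. FBs that no list marked were at 142, 795 and 152 CPM, with 2-week and 12-week ratios of 5.60 (4.12 to 7.53) and 1.07 (0.683 to 1.62). In *Inmt* *Gdf10* FBs *Wisp2* was at 214 CPM in the healthy library and at 13.4 CPM (1 UMI in 21 cells) at 12 weeks, a ratio of 0.0627 (0.00156 to 0.363).

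FBs with 3 or more *Wisp2* UMIs were set beside FBs without any. In the healthy library, with 55 against 1069 such cells, *Sfrp2*, a secreted Wnt modulator, was at 457 against 34.6 CPM, a ratio of 13.2 (10.0 to 17.4), and *Comp*, a cartilage matrix protein, at 835 against 178 CPM, a ratio of 4.70 (3.96 to 5.56). At 2 weeks, with 11 against 78 cells, the ratios were 14.1 (6.07 to 38.0) for *Sfrp2* and 2.23 (1.71 to 2.90) for *Comp*. At 12 weeks, with 14 against 156 cells, they were 2.88 (1.10 to 6.77) and 4.88 (3.75 to 6.31). *Igfbp3*, which binds insulin-like growth factors, was 5.09 times as high in the healthy library (3.72 to 6.87) and 0.412 times at 12 weeks (0.148 to 0.926). These genes were chosen after their values had been seen. Cells with 3 or more *Wisp2* UMIs were deeper, with medians of 3694, 4107 and 3549 UMIs against 2856, 1427 and 2207, and the part of depth in these ratios was not tested.

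*Wisp1*, known as a Wnt1-inducible gene, was near the limit of detection. FBs had 20, 5 and 3 UMIs at 0, 2 and 12 weeks, which is 4.87 CPM (2.98 to 7.52), 18.5 CPM (6.01 to 43.2) and 4.78 CPM (0.985 to 14.0). The 2-week ratio was 3.80 (1.11 to 10.4), with an interval that just leaves out 1, and the 12-week ratio was 0.981 (0.187 to 3.31). The 5 UMIs at 2 weeks came from 4 of 100 cells, and 4 of them lay in *Postn* *Thbs4* *Cilp* FBs, in which the interval of the ratio of 2.18 (0.468 to 8.58) includes 1. Over the 11 alternatives the 2-week ratio ran from 1.16 to 10.01. In the healthy library *Postn* *Thbs4* *Cilp* FBs had 7 UMIs (15.3 CPM) and *Pi16* *Cd248* FBs 2 (1.33 CPM), a ratio of 11.5 (2.19 to 113), and *Inmt* *Gdf10* FBs had 5 UMIs (17.9 CPM). In ECs it had 3, 1 and 0 UMIs, in mural cells 5, 1 and 0, and in blood cells none, in 961, 196 and 184 cells.

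By a 2-fold rule 3 of 5 members differed in FBs at 2 weeks, *Wisp1* among them from 5 UMIs. None of the 3 members that could be counted in ECs differed at that time. A gene was counted as higher or lower when its level, with 1 CPM added, differed at least 2-fold from the healthy library, among genes with at least 20 UMIs over both libraries. In FBs at 2 weeks 3 of the 5 members were higher (*Ctgf*, *Wisp1* and *Wisp2*), where 8.89% of 9962 genes were, and none was lower, where 12.2% of genes were. In FBs at 12 weeks *Ctgf* alone was higher, against 5.77% of 10181 genes, and none lower, against 5.95%. In ECs at 2 weeks none of the 3 members with enough UMIs was higher or lower, against 3.06% and 5.01% of 10382 genes. In ECs at 12 weeks *Nov* was higher, against 7.89% of 9389 genes, and none was lower, against 7.70%. In mural cells at 2 weeks *Ctgf* and *Nov* were higher of 3 members, against 5.37% of 7372 genes, with none lower against 12.1%, and at 12 weeks none was higher or lower, against 7.77% and 18.6% of 7223 genes. The median log2 ratio over all genes was between -0.05 and 0.10 in these comparisons. These counts are read from the same levels as above, and no more is drawn from them.

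**Figure D5:**
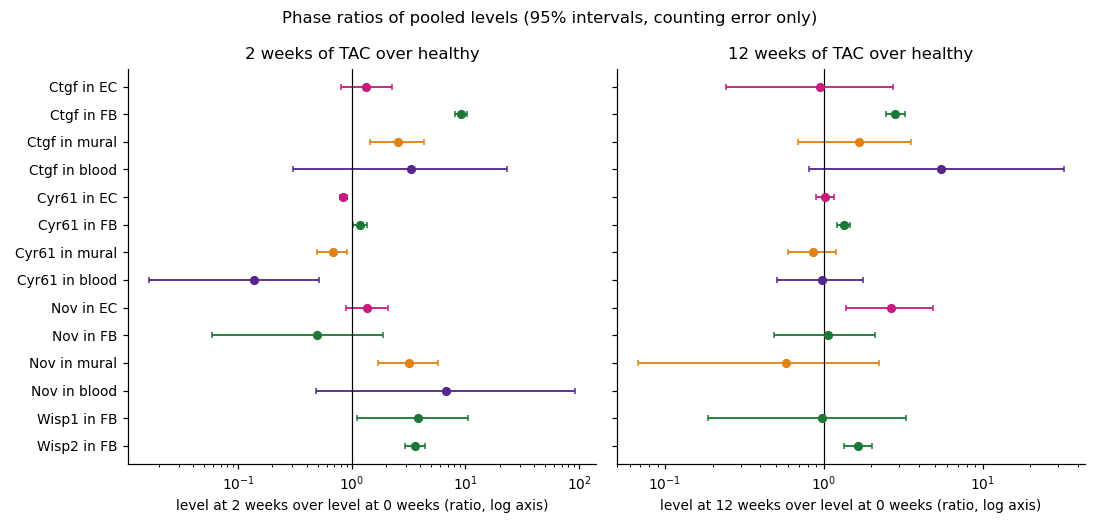
Ratio of the pooled level at 2 weeks (left) and 12 weeks (right) to that at 0 weeks, on log axes, with 95% intervals for counting error, coloured by class, where pairs with 0 UMIs in either library have no point. *Ctgf* and *Wisp2* in FBs lie to the right of 1 in both panels, while *Cyr61* lies near 1 in ECs and FBs.

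*Wisp2* was higher in FBs with a *Ctgf* UMI in each library, and *Cyr61* in the healthy and 12-week libraries. The *Wisp2* level of FBs with a *Ctgf* UMI over that of FBs without one was 1.71 in healthy hearts (1.43 to 2.06). It was 11.8 (4.48 to 44.0) for the 2-week library and 1.77 (1.19 to 2.70) for the 12-week library. At 2 weeks 111 of the 115 *Wisp2* UMIs were in the 62 FBs that also had *Ctgf*. For *Cyr61* the same ratios were 1.41 (1.30 to 1.52), 1.04 (0.770 to 1.42) and 1.82 (1.52 to 2.20). Taken the other way, the *Ctgf* level of FBs with a *Cyr61* UMI over that of FBs without one was 1.61 (1.365 to 1.91), 1.83 (1.45 to 2.33) and 1.68 (1.28 to 2.23). FBs with a *Cyr61* UMI were deeper, with a median of 2628 UMIs against 1305 at 2 weeks. *Nov* and *Wisp2* gave ratios on both sides of 1. In healthy hearts the 48 FBs with *Nov* had 2 *Wisp2* UMIs, 9.93 CPM against 124 CPM in the other FBs, a ratio of 0.0801 (0.00967 to 0.291). At 2 weeks the ratio went the other way, 988 against 408 CPM or 2.42 (1.02 to 4.94), from 8 *Wisp2* UMIs in 2 FBs with *Nov*, and at 12 weeks it was 0.308 (0.00774 to 1.75) from 1 UMI in 3 FBs. FBs with a *Ctgf* UMI were deeper than those without, with medians of 3421, 2575 and 2781 UMIs against 2693, 1207 and 1991, and how much depth adds to these ratios was not tested.

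The pathways known to act on CCN genes, and the receptors of their products, were examined as lists in the same cells. Of the 17 TGF-beta targets, 9 were higher and none lower in FBs at 2 weeks, where 8.89% of all genes were higher and 12.2% lower, with a median log2 ratio of 1.03 against -0.01 over all genes. Among them *Postn*, a matricellular protein of activated FBs that is also a marker of 1 sub-gate here, was at 757 and 4257 CPM, a ratio of 5.62 (5.25 to 6.02), and *Col3a1*, a fibrillar collagen, at 2514 and 6178 CPM, a ratio of 2.46 (2.33 to 2.59). *Col5a1*, another collagen, had a ratio of 2.47 (2.08 to 2.91), and *Pmepa1*, which restrains TGF-beta signaling, one of 2.33 (2.04 to 2.66). The matrix proteins *Fn1* and *Tnc* were also among the 9, with ratios of 3.58 (2.97 to 4.28) and 6.04 (3.71 to 9.55). At 12 weeks, where 5.77% of all genes were higher and 5.95% lower, 1 of the 17 was higher, *Ltbp2* at 2.09 (1.67 to 2.61), and 2 were lower, again *Fn1* at 0.434 (0.310 to 0.593) and *Tnc* at 0.289 (0.0581 to 0.880) from 3 UMIs, with a median of -0.12. *Ctgf*, which was kept off the list, was 2.83 times the healthy level at that time.

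The counts of the other lists in FBs are small and stand beside the same shares of all genes, 8.89% higher and 12.2% lower at 2 weeks and 5.77% and 5.95% at 12 weeks. Of 16 YAP and TAZ targets with enough UMIs, 1 was higher and 1 lower at 2 weeks (median log2 ratio 0.31) and 2 were higher and 1 lower at 12 weeks (median -0.10), where *Igfbp3* had a ratio of 3.49 (2.85 to 4.27). Of 15 genes of the Hippo and TEAD machinery 2 were higher and 2 lower at 2 weeks, and none either way at 12 weeks. *Tead1*, a DNA-binding partner of YAP, had a ratio of 2.30 (1.46 to 3.48) at 2 weeks, and *Lats1*, a kinase that restrains YAP, one of 3.29 (1.79 to 5.70) from 16 UMIs. The 2 lower genes were *Mob1b* at 0.279 (0.0334 to 1.03) and *Stk4* at 0.461 (0.0546 to 1.73), each from 2 UMIs at 2 weeks. Of 11 CCN receptor genes 2 were higher at 2 weeks, the integrin subunits *Itgb5* at 2.14 (1.80 to 2.53) and *Itga5* at 2.42 (1.54 to 3.68), and none was lower. At 12 weeks none was higher and 1 was lower, *Itga6*, from 1 UMI. Of the Wnt targets 2 of 6 were higher at 2 weeks, *Nkd2* and *Fzd7*, and 3 of 7 at 12 weeks, *Nkd2*, *Nkd1* and *Znrf3*, with none lower at either time. *Nkd1* and *Znrf3* had 11 and 7 UMIs at 12 weeks, and the count of 3 was 1 among genes with at least 50 UMIs and 0 with 10 CPM added.

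Genes that respond to the dissociation of tissue were followed as well, since *Cyr61* and *Ctgf* are themselves early response genes. In FBs the 25 immediate early genes summed to 24706, 22499 and 25984 CPM at 0, 2 and 12 weeks, and in ECs to 34764, 29260 and 27737 CPM. Of 22 with enough UMIs in FBs, 3 were higher and 1 lower at 2 weeks, and 1 was higher at 12 weeks, beside the shares of all genes given above for FBs. *Ier3* had ratios of 2.84 (2.46 to 3.27) and 2.08 (1.85 to 2.33), and *Klf2* one of 0.455 (0.390 to 0.527) at 2 weeks. In ECs none of 24 differed 2-fold at 2 weeks and 3 of 23 were lower at 12 weeks. Of all genes in ECs 5.01% were lower at 2 weeks and 7.7% at 12 weeks. Heat shock genes were lower in ECs, at 18990, 10822 and 9874 CPM in sum, with 4 of 12 lower at 2 weeks and 6 of 12 at 12 weeks, and in FBs they summed to 8963, 6715 and 6743 CPM, with 1 of 12 higher and 1 lower at 2 weeks, where 12.2% of genes were lower, and 3 lower at 12 weeks, where 5.95% were. The part of dissociation in the *Cyr61* and *Ctgf* levels was not tested.

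In ECs the counts of the remaining lists were mostly of 1 gene, where 3.06% of all genes were higher and 5.01% lower at 2 weeks, and 7.89% and 7.7% at 12 weeks. At 2 weeks 2 of 13 TGF-beta targets, 1 of 14 YAP and TAZ targets, 1 of 15 Hippo and TEAD genes, 1 of 11 CCN receptors and 1 of 3 Wnt targets were lower and none was higher. At 12 weeks 1 of 12 TGF-beta targets was higher, *Col8a1* at 2.17 (1.499 to 3.08), and 1 was lower, while 1 of 14 YAP and TAZ targets was higher and 2 were lower, among them *Amotl2*, which binds YAP, at 0.477 (0.283 to 0.760). Of 14 Hippo and TEAD genes and of 3 Wnt targets 1 each was lower at that time, and none was higher. Of the 11 CCN receptors 1 was higher at 12 weeks, *Itgb3*, an integrin subunit, at 3.58 (1.21 to 9.66) from 7 UMIs. In mural cells at 2 weeks 1 of 22 immediate early genes (*Myc*) was higher, where 5.37% of all genes were. Lower were 3 of 14 Hippo and TEAD genes, 1 of 14 YAP and TAZ targets and 1 of 12 TGF-beta targets, where 12.1% of all genes were. At 12 weeks, with 40 mural cells, no gene of the lists was higher, where 7.77% of all genes were. Among those lower were 7 of 11 TGF-beta targets, 3 of 14 Hippo and TEAD genes and 3 of 12 heat shock genes, where 18.6% of all genes were. Markers of cells other than those gated were low in FBs. The 8 cardiomyocyte genes summed to 50.7, 40.7 and 22.3 CPM in FBs and to 757, 564 and 186 CPM in ECs at 0, 2 and 12 weeks, and the 7 epicardial genes to 43.6, 111 and 58.9 CPM in FBs, with at least 3 of them in 3, 3 and 1 FBs and *Krt18* at 0 UMIs at 2 weeks. The part of these cells in the FB levels was not tested. The 5 erythroid genes summed to 98.0, 310 and 6911 CPM in ECs, and haemoglobin UMIs counted in the total at 12 weeks. With mitochondrial, ribosomal and haemoglobin UMIs left out of the total, each of the 22 phase ratios of members followed through the alternatives stayed within its interval.

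The genes whose levels ran most like those of a member over the 12 pools of 4 classes by 3 phases were ranked by Pearson correlation of log2(CPM + 1), among 7843 genes. The pools of a phase share a library, and the correlation is given as a description. *Ctgf* was closest to *Fzd1* (0.976), *9530068E07Rik* (0.967) and *Ltbp3* (0.964), *Cyr61* to *Ackr3* (0.977), *Nfib* (0.975) and *Serpinh1* (0.972), and *Nov* to *Jag1* (0.944), *Wiz* (0.933) and *Ikzf5* (0.930). *Wisp1*, with 38 UMIs in the pools, had *Col12a1* (0.947) and *Csad* (0.945) among its closest genes, and *Wisp2* was closest to *Ltbp2* (0.984), *Dclk1* (0.968) and *Kcnt2* (0.965). In FBs *Ltbp2* was at 80.6, 448 and 169 CPM at 0, 2 and 12 weeks, which is the order that *Wisp2* and *Ctgf* also had. Between members the correlation was highest for *Ctgf* with *Wisp1* (0.884) and lowest for *Nov* with *Wisp2* (-0.007).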

How the data were processed

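The deposited files hold raw UMI counts per gene and cell, which the authors made with Cell Ranger 2.0.0 on mm10, per the submitters' processing notes, from 10x libraries of ventricular non-CMs. There were 3 libraries, 1 for each phase, so that no test between phases was possible and no p-value is given. The CCN members, marker lists, sub-gate lists and pathway lists were chosen with earlier results of these data known. A minimum of 200 genes per cell left 6915 cells and set 8, 8 and 10 aside. Cells were gated on summed marker UMIs (at least 3 and at least 2 times every other list) as ECs, FBs, mural, blood or neural cells, and otherwise left as mixed or low. Sub-gates required 2 UMIs and 1.5 times the next list. The precision of a level follows the UMIs of its pool. Among ECs, FBs, mural and blood cells these run from 128224 in mural cells at 12 weeks to 4106071 in healthy FBs. Pools of neural cells and of many sub-gates are smaller, such as 34702 UMIs in neural cells at 12 weeks. *Wif1* *Comp* *Chad* FBs at 2 weeks held 24107.

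UMIs were summed per class and library, divided by the total of the class and given as CPM with exact 95% Poisson intervals. Ratios have conditional exact binomial intervals. A count of 0 was given the limit of 3 counts. Shares of cells were thinned to 1000 UMIs by their hypergeometric expectation, leaving out shallower cells. The 2-fold rule used levels with 1 CPM added among genes with at least 20 UMIs over both libraries. Genes of the lists were named when they passed this rule, and the 3 genes most like a member were taken by Pearson correlation over 12 pools among genes with at least 200 UMIs. 1 of the genes so taken is not reported here. Motifs were searched on both strands of 32851 RefSeq promoters, and genes were placed with the GRCm38 annotation. Tools were Python 3.11.15, numpy 2.4.6, scipy 1.17.1, pandas 2.3.3 and matplotlib 3.10.9, and the counting steps were checked on simulated pools. Those pools were drawn with counting error alone, so the check does not cover the spread between cells. Alternatives varied the gate, its markers, cell filters, the total, the weighting of cells, the thinning, the sub-gate and the 2-fold rule.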

Additional observations from a re-analysis of the deposited data

Results flagged for a closer look

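*Cyr61* was the member whose ratio of 2 weeks to the healthy library lay above 1 in one class and below 1 in others, each with an interval that leaves out 1. It was 1.173 in FBs, against 0.8404 in ECs, 0.6761 in mural cells, 0.4564 in neural cells and 0.1378 in blood cells. At 12 weeks it was 1.337 in FBs and 0.6845 in neural cells. The difference between classes was not tested, and without the 3 cells with the most *Cyr61* UMIs in each library the FB ratio at 2 weeks was 0.877. Leaving out 3 cells weighs more on the smaller FB pool at 2 weeks, which by itself lowers that ratio. The blood value rests on 2 UMIs at 2 weeks.

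Cells that the gate left as mixed, 122, 31 and 6 at 0, 2 and 12 weeks, enter no comparison above. In them *Ctgf* was 4.951 times (2.89 to 8.41) and *Nov* 4.008 times (1.61 to 9.54) as high at 2 weeks as in the healthy library. At 2 weeks the 28 *Ctgf* UMIs came from 5 cells, of which 1 held 17, and the 10 *Nov* UMIs came from 5 cells. They carry markers of more than 1 class, and which cells the UMIs came from was not tested.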

How the results depend on the processing

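The reported values were recomputed under 17 alternatives, 15 of them planned. Of 652 values for members and the main lists, 542 stayed within the reported interval or within 1.5 times the count, 108 moved further and 2 changed direction. A change of direction was counted only where the reported interval of a ratio left out equal levels. Other ratios that crossed equal levels are not among the 2. Gate minimums of 2 and 6 marker UMIs, a dominance of 4 times and a minimum of 500 genes per cell moved none of the 55 values each was run on.

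Without the 3 cells with the most UMIs of the gene in each library, an alternative chosen after seeing the data, *Cyr61* in FBs at 2 weeks turned to 0.8766, and its ratios were 1.147 in FBs and 0.8311 in ECs at 12 weeks, and 0.4723 and 0.4643 in mural cells at 2 and 12 weeks. Save for ECs at 2 weeks, pools after TAC held fewer cells than healthy ones. There 3 cells are a larger part, which by itself lowers the phase ratios. *Ctgf* in FBs at 2 weeks was 7.758, *Wisp2* in FBs 2.188 and 1.224, and *Nov* in mural cells 1.379 at 2 weeks and 0 at 12 weeks. *Nov* in FBs was 0 at both times and *Wisp1* in FBs 0 at 12 weeks. Each value of 0 in this paragraph was fixed in advance, since at most 3 cells of the pool had a UMI of the gene. The *Cyr61* ratio of FBs to ECs at 2 weeks was 1.351, and the *Nov* ratio of mural cells to ECs 1.631 and 0 at 2 and 12 weeks. Levels in CPM were 1235 and 415 for *Ctgf* in FBs at 2 and 12 weeks, 422.4 for *Cyr61* in ECs at 12 weeks, and 649.5, 569.4 and 745.2 for *Cyr61* in FBs. They were 12.38 and 16.66 for *Nov* in ECs at 2 and 12 weeks, 14.63, 20.18 and 0 for *Nov* in mural cells, and 104.7, 229 and 128.1 for *Wisp2* in FBs.

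Among cells with 1000 to 4000 UMIs, also chosen after seeing the data, ratios in FBs were 10.73 and 4.077 for *Ctgf* at 2 and 12 weeks, 1.864 for *Cyr61*, 2.282 for *Wisp2* and 0 for *Wisp1* at 12 weeks. *Cyr61* was 0.7571 in ECs at 2 weeks and 0.4213 and 0.1906 in mural cells, and *Nov* was 1.347 in ECs at 12 weeks and 1.366 in mural cells at 2 weeks. With the mean over cells in place of the pool, *Ctgf* in FBs was 10.98 and 3.896 times the healthy level, *Wisp2* 2.883 times at 2 weeks, *Cyr61* 0.8145 times in ECs at 12 weeks and 0.4676 and 0.4789 times in mural cells, and the *Cyr61* ratio of FBs to ECs at 0 weeks was 1.134. The levels were then 1921 and 681.6 CPM for *Ctgf* in FBs at 2 and 12 weeks, 567.5 and 462.2 for *Cyr61* in ECs at 0 and 12 weeks, 643.7 for *Cyr61* in FBs at 0 weeks and 337.2 for *Wisp2* in FBs at 2 weeks. Without cells over 10% mitochondrial UMIs, *Ctgf* in FBs at 2 weeks was at 1126 CPM, 6.894 times the healthy level. With the markers of the study's methods, *Cyr61* in mural cells at 2 weeks turned to 1.026, *Ctgf* there was 4.719, and the *Cyr61* ratio of ECs to blood cells at 0 weeks was 12.05. Without cells that held cardiomyocyte genes, *Cyr61* at 0 weeks was at 556.4 CPM in ECs with an FB to EC ratio of 1.22, and *Nov* in ECs was at 17.5 CPM.

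Leaving mitochondrial, ribosomal and haemoglobin UMIs out of the total raised the levels by construction, to 206.1, 1944 and 579.6 CPM for *Ctgf* in FBs, 643.3, 562 and 644.1 for *Cyr61* in ECs, 827.3, 995.2 and 1099 for *Cyr61* in FBs and 145, 534.8 and 236.5 for *Wisp2* in FBs. Thinned to 500 UMIs, the share of cells was 7.501% and 19.72% for *Ctgf* in FBs at 0 and 12 weeks, 20.49%, 16.22% and 15.74% for *Cyr61* in ECs, 22.22%, 27.41% and 26.51% for *Cyr61* in FBs and 4.478% and 6.919% for *Wisp2* in FBs at 0 and 12 weeks. Without thinning it was 28.51% and 46.39% for *Ctgf* in FBs at 0 and 12 weeks, 53.51% and 35.49% for *Cyr61* in ECs at 0 and 2 weeks, 54.06% and 54.12% for *Cyr61* in FBs and 14.14% and 19.59% for *Wisp2* in FBs at 0 and 12 weeks. With the stricter sub-gate *Ctgf* was 11.22 and 6.376 times the healthy level in *Pi16* *Cd248* FBs, 8.296 times in *Postn* *Thbs4* *Cilp* FBs at 2 weeks and 26.16 times in *Wif1* *Comp* *Chad* FBs at 2 weeks. *Wisp2* in *Wif1* *Comp* *Chad* FBs was 2.065 and 1.001 times, and the *Nov* ratio of arterial to capillary ECs at 12 weeks was 16.04.

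With no minimum beyond 1 UMI, 2 YAP and TAZ targets were higher and 3 lower in FBs at 2 weeks, and 4 were higher at 12 weeks. With at least 50 UMIs none was lower at either time and 1 was higher at 12 weeks. With 10 CPM added none was higher or lower at 2 weeks, 1 was higher and none lower at 12 weeks, and none of the TGF-beta targets was higher and 1 lower at 12 weeks. Of 288 counts for the other lists, 66 moved by over 1.5 times, most of them by 1 gene. Where not stated, the cause of a move was not tested. Class ratios with 0 UMIs in the denominator gave no value. No paired analysis was possible because each phase is 1 library. Depth limits *Wisp1*, *Nov* in FBs and every sub-gate with few cells at 2 and 12 weeks.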
